A study of Oryza sativa Japonica Group with 8 samples.

Results

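ILL3 and GH3.2 are a pair of rice genes on opposite sides of auxin storage, and they are described here across the 4 groups of a seedling light experiment. They were chosen by name, as the probe sets annotated to genes with the symbol or synonym ILL3 or GH3.2, with their levels in these arrays already known. The rule found 2 of the 17905 genes that the array's annotation names, each with 1 probe set. ILL3 has the gene ID 4334707 and GH3.2 the gene ID 4326893, and both names come from the synonyms of the RefSeq gene table.

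The 8 arrays measured RNA from the above-ground tissues of 5-day-old Nipponbare seedlings grown on MS medium at 28 °C, with 2 arrays per group. Wild-type (WT) seedlings and Ubi::OsYHB/Nip seedlings were each raised either in darkness or in continuous red light (Rc50, an irradiance of 50 µmol per square metre per second). OsYHB is the Y283H allele of OsPHYB, a constitutively active form of the red light receptor phytochrome B, and it was expressed from the maize Ubiquitin promoter. The OsYHB replicates are separate single-insertion homozygous lines, so that replicate 1 in both light conditions is line 1 (41-fold overexpression of OsYHB) and replicate 2 is line 9 (23-fold). Dark-grown seedlings were harvested under dim green light, and the whole shoot was extracted, so that fewer cells of a type and less RNA per cell cannot be told apart.

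Auxin (indole-3-acetic acid) is held in plants partly as conjugates with amino acids. GH3 enzymes, such as the product of GH3.2 in rice, join auxin to amino acids and so lower the free hormone. Amidohydrolases of the ILR1 and ILL family, known best from Arabidopsis, split such conjugates and release the hormone, and ILL3 belongs to this family by its name. GH3 genes are themselves auxin-induced in many plants, and auxin drives the elongation of dark-grown shoots.

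ILL3 had a high signal in dark-grown wild type alone. Its intensity, on the linear scale of the deposited table, reached 2961.9 and 2089.2 in dark-grown wild type. It was 28.6 and 14.6 in wild-type red light, 17.4 and 16.8 in OsYHB darkness and 12.5 and 13.4 in OsYHB red light. The wild-type dark arrays did not overlap with the other 6, whose highest value was 28.6, and the arrays of those 6 lay within a range of 12.5 to 28.6. In log2 units the group means were 11.28 ± 0.36 (SD, n = 2) in wild-type darkness, 4.35 ± 0.69 in wild-type red light, 4.10 ± 0.04 in OsYHB darkness and 3.69 ± 0.07 in OsYHB red light. The order was therefore wild-type dark, wild-type red, OsYHB dark and OsYHB red, with overlapping arrays between wild-type red and OsYHB dark. The OsYHB dark arrays lay just above the OsYHB red arrays without overlap, a difference tested further on.

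The difference of log2 means was -6.93 (SE 0.29) for red light against darkness in wild type, and -7.18 (SE 0.29) for OsYHB against wild type in darkness. These correspond to intensity ratios of 122 and 145. They are given as a description with no test, because both comparisons were in view when the gene was chosen. Of 57258 probe sets, 1 had a lower difference than ILL3 in each of these comparisons, which share the wild-type dark arrays. The other 6 arrays lie near or below the median intensity of an array, which was 20.4 to 20.9. The table has no detection call, so these low values are not shown to be above background, and the ratios may then understate the difference.

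GH3.2 followed the same outline at a smaller size and with a wider spread between replicates. Its intensity was 302.5 and 107.8 in wild-type darkness. It was 13.2 and 16.9 in wild-type red light, 7.6 and 10.0 in OsYHB darkness and 13.0 and 12.7 in OsYHB red light. The wild-type dark arrays were again above the other 6, which ranged from 7.6 to 16.9, although the wild-type dark replicates themselves differed 2.81-fold. The group means in log2 units were 7.50 ± 1.05 (SD, n = 2), 3.90 ± 0.25, 3.12 ± 0.28 and 3.68 ± 0.02 in the same order. Below wild-type darkness came wild-type red light, OsYHB red light and OsYHB darkness, and the arrays of OsYHB darkness were the lowest of all 8. The red light arrays of both genotypes lay close together, at 12.7 to 16.9, also without overlap.

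For GH3.2 the difference of log2 means was -3.60 (SE 0.40) for red light against darkness in wild type and -4.37 (SE 0.40) for OsYHB against wild type in darkness, ratios of 12.1 and 20.7. The levels of 7.6 to 16.9 outside wild-type darkness lie below the array median and are not shown to be above background, so these sizes depend on how low values are treated. With a floor of 16 they were -3.46 and -3.50, and with log2(value + 16) -2.68 and -3.00. They also depend on which wild-type dark array is used: without replicate 1 they were -2.85 and -3.63, and without replicate 2 they were -4.34 and -5.12. The replicate gap in wild-type darkness was 1.49 in log2 for GH3.2 and 0.50 for ILL3.

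**Figure D1:**
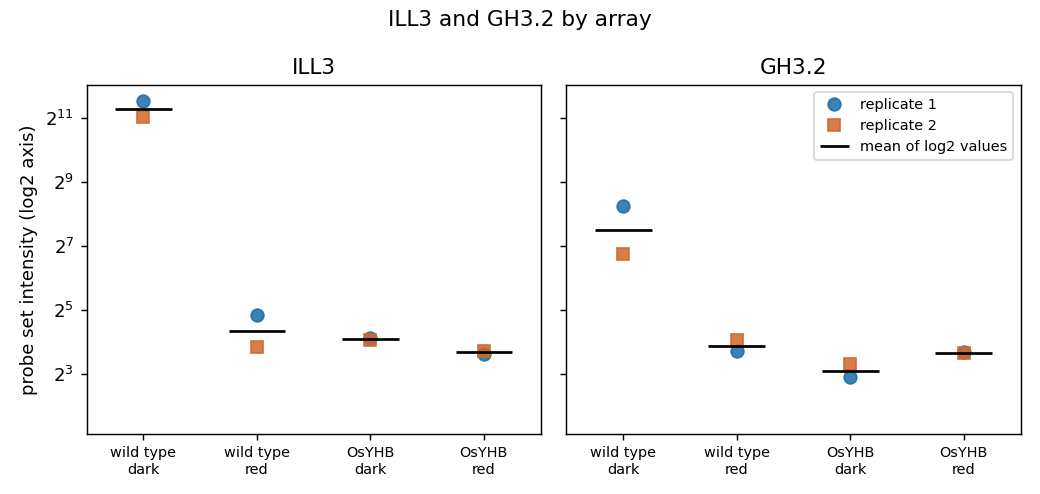
Intensity of the ILL3 and GH3.2 probe sets on a log2 axis in the 4 groups, with points for replicates 1 and 2 and a bar for the mean of the log2 values. For both genes the wild-type dark arrays lie above the other 6, and the ILL3 values of those 6 stay between 12.5 and 28.6.

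The lowest wild-type dark value exceeded the highest value in any other array by 6.19 log2 units for ILL3 and by 2.67 for GH3.2. A gap at least as large as that of ILL3 was found in 2 probe sets in all, and one at least as large as that of GH3.2 in 53. The light response differed between the genotypes by 6.53 (SE 0.41) for ILL3 and 4.16 (SE 0.57) for GH3.2 on the log2 scale, counted as the response in OsYHB minus that in wild type. This difference holds the same wild-type dark arrays and is a description too, in a comparison where 4.22% of all probe sets were called.

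Among the groups without the high level, neither gene was called in any tested comparison. A call means an adjusted p below 0.05 in limma, with Benjamini-Hochberg adjustment over all 57258 probe sets. In OsYHB seedlings red light against darkness gave a log2 change of -0.40 for ILL3 (95% interval -1.07 to 0.26, limma adjusted p = 0.565) and of 0.56 for GH3.2 (-0.36 to 1.48, limma adjusted p = 0.564). The intervals draw on 1 spread over all 4 groups, so they carry scatter from groups outside a comparison. The SE was 0.29 for ILL3 and 0.40 for GH3.2. On the OsYHB arrays alone it was 0.11 and 0.16, with a limma adjusted p of 0.2 and 0.207. In that comparison 0.0105% of all probe sets were called, 6 in number, and 2 with the replicate number as a block. That block is shared by wild type, where the number marks no line. It is therefore not a block on the line, and pairing of the OsYHB dark and red arrays by line alone was not tested. Between genotypes in red light, OsYHB minus wild type, the log2 change was -0.66 for ILL3 (-1.32 to 0.01, limma adjusted p = 0.657) and -0.22 for GH3.2 (-1.14 to 0.71, limma adjusted p = 0.911), with 0.0192% of all probe sets called.

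OsYHB seedlings in darkness and wild-type seedlings in red light also showed no called difference in the pair. OsYHB darkness minus wild-type red light was -0.26 for ILL3 (-0.92 to 0.41, limma adjusted p = 0.689) and -0.78 for GH3.2 (-1.70 to 0.15, limma adjusted p = 0.371), and 0.194% of all probe sets were called. The ILL3 value has the opposite sign, 0.23, without wild-type red replicate 1, which held the highest of the low ILL3 values. For OsYHB darkness minus wild-type red light the SE was 0.29 for ILL3 and 0.40 for GH3.2. On the arrays of these groups alone it was 0.30 and 0.19, with a limma adjusted p of 0.668 and 0.138. The OsYHB lines, which differ in overexpression, differed by -0.02 for ILL3 (-0.39 to 0.34) and by -0.18 for GH3.2 (-1.11 to 0.75), line 1 minus line 9, with a limma adjusted p of 1.0 for both and 0.0734% of all probe sets called. A missing call does not show that the groups were alike, and differences within these intervals remain possible.

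In the GH3 family GH3.2 stood beside 8 other genes with a probe set. In wild-type red light 2 of the 8 fell and 1 rose, against 9.73% of all probe sets called (5.14% higher and 4.59% lower). GH3.1, an auxin-conjugating member in rice, had intensities of 139.6 and 73.7 in wild-type darkness, 40.7 and 39.1 in wild-type red light, 29.2 and 38.7 in OsYHB darkness and 33.4 and 32.5 in OsYHB red light. GH3.1 thus had its dark wild-type arrays above the other 6, as GH3.2 did. Its log2 change was -1.35 (SE 0.27) at a limma adjusted p of 0.0167, and this call was lost without either wild-type red array (adjusted p up to 0.112). GH3.4 fell by 0.98 (SE 0.19, limma adjusted p = 0.0135), from 138.0 and 110.3 to 63.0 and 62.1. Its call was lost without wild-type dark replicate 1 or either wild-type red array (adjusted p up to 0.0945).

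GH3.5, also named JAR1, joins jasmonic acid rather than auxin to an amino acid, and it was the member that rose. Its log2 change was 0.51 (SE 0.12, limma adjusted p = 0.0367), from 244.4 and 240.3 to 334.1 and 358.4. The call was lost in 6 of the 8 fits that left out 1 array, namely each WT array and each OsYHB red array (adjusted p up to 0.204). GH3.8, which conjugates auxin with aspartate in rice, had a log2 change of -0.99 (limma adjusted p = 0.0694) and GH3.6 one of -0.82 (0.0949). The remaining GH3.7 (-0.23), GH3.9 (0.10) and GH3.11 (-0.03) were not called. GH3.9 and GH3.11 were at 7.0 to 9.5 in every array, well below the array median and not shown to be above background.

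OsYHB against wild type in darkness gave 3 lower and 1 higher of the same 8 genes, with 17.0% of all probe sets called (7.69% higher and 9.27% lower). Those that fell were GH3.1, with a log2 change of -1.59 (SE 0.27, limma adjusted p = 0.00598), GH3.4, with -1.55 (SE 0.19, adjusted p = 0.00122), and GH3.8, with -1.36 (SE 0.28, adjusted p = 0.0149). GH3.8 went from 134.4 and 112.7 to 48.9 and 47.0, and its call was lost without wild-type dark replicate 1 or either OsYHB dark array (adjusted p up to 0.09). GH3.5 rose by 0.58 (SE 0.12, adjusted p = 0.0168), a call lost without OsYHB dark replicate 2 (adjusted p = 0.113). GH3.6 (-0.14), GH3.7 (-0.55), GH3.9 (-0.05) and GH3.11 (0.02) were not called. GH3.7 has 3 probe sets, none of which was called in either comparison.

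The ILL family of conjugate hydrolases, as far as its genes were found by name, gave no other gene that moved like ILL3. Of its 6 other genes, limma called 0 in wild-type red light, where 3 had an unadjusted p below 0.05, and 2 in OsYHB darkness, both lower. Over all probe sets the share called was 9.73% and 17.0%, so for 6 genes these counts of calls are near the background. In wild-type red light 13415 of all 57258 probe sets had an unadjusted limma p below 0.05. ILL1 fell by 0.48 in OsYHB darkness (SE 0.13, limma adjusted p = 0.0431), from 610.0 and 540.4 to 442.2 and 382.5. ILL6 fell by 0.54 (SE 0.14, limma adjusted p = 0.0325), from 238.2 and 208.6 to 146.2 and 159.8. The call of ILL1 was lost in 7 of 8 fits that left out 1 array, all but that without wild-type dark replicate 2, with an adjusted p up to 0.219. That of ILL6 was lost in 5 of 8, without wild-type dark replicate 1 or any 1 of the OsYHB arrays, with an adjusted p up to 0.144.

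ILL2 had log2 changes of -0.79 in wild-type red light (limma adjusted p = 0.141) and -0.70 in OsYHB darkness (0.136). For ILL5 they were -0.31 and -0.01 and for ILL7 -0.01 and -0.02. ILL8 had 1.19 (SE 0.47) and 0.64 (SE 0.47), with intensities of 60.4 and 69.7 in wild-type darkness, 142.9 and 152.6 in wild-type red light, 142.4 and 71.5 in OsYHB darkness and 110.4 and 37.6 in OsYHB red light. In ILL8 line 1 was above line 9 in both light conditions, by 1.27 on average in log2, and this was not called (limma adjusted p = 0.13). ILL5 has a second probe set, which was not called either.

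**Figure D2:**
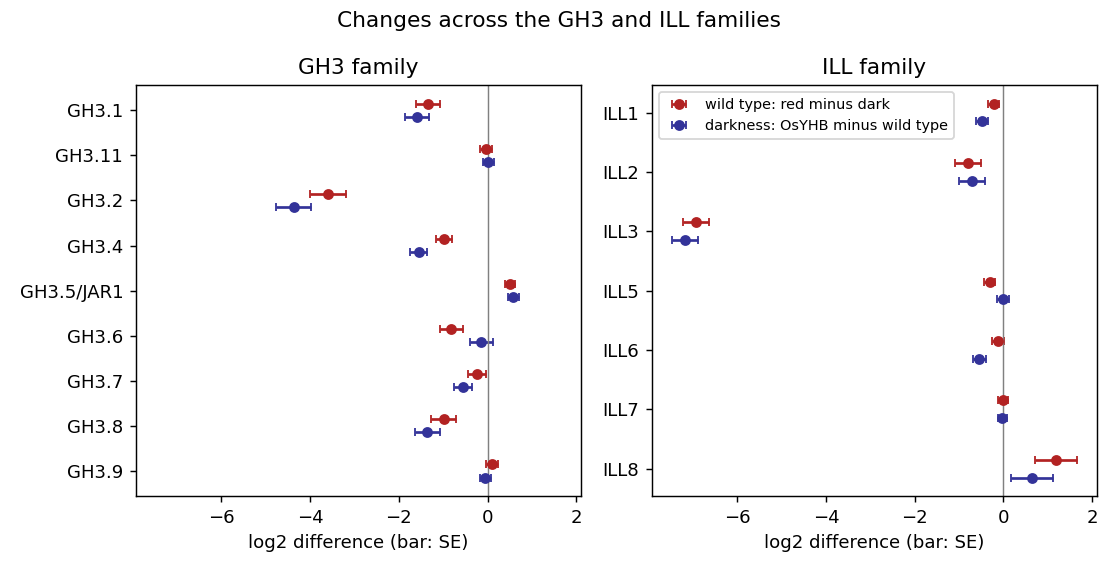
Log2 differences with their SE for the 9 GH3 and 7 ILL family genes that have a probe set, for red light minus darkness in wild type (red) and for OsYHB minus wild type in darkness (blue), each from means of 2 arrays against 2. GH3.2 lies at -3.60 and -4.37 and ILL3 at -6.93 and -7.18, while the other genes lie between -1.59 and 1.19; both comparisons use the same wild-type dark arrays.

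Beyond the conjugation families, the auxin genes on the array covered synthesis, inactivation, transport, Aux/IAA repressors, ARF transcription factors and a SAUR gene. Of all 68 auxin genes other than the pair, 18 fell and 3 rose in wild-type red light (30.9% called, next to 9.73% of all probe sets). In OsYHB darkness 31 fell and 2 rose (48.5% called, next to 17.0%). The sets compared are unlike, here and for each single list. An auxin gene stands by its brightest probe set, while all probe sets include many dim and unnamed ones. A separate fit took only the 28626 probe sets with a mean intensity above the median, with the adjustment over those alone. In it 6051 were called in wild-type red light and 10321 in OsYHB darkness. Of the auxin genes in that fit, 21 fell and 3 rose in wild-type red light, and 32 fell and 3 rose in OsYHB darkness. Its counts are the ones to set beside each other, as the 9.73% and 17.0% come from the fit on all probe sets. The auxin counts also depend on single arrays. In wild-type red light 11 fell without wild-type dark replicate 1, 7 without wild-type red replicate 1 and 9 without wild-type red replicate 2, and 1, 0 and 0 rose without wild-type dark replicate 2 and without wild-type red replicates 1 and 2. In OsYHB darkness 20 fell without wild-type dark replicate 1, 20 without OsYHB dark replicate 1 and 16 without OsYHB dark replicate 2, and without those OsYHB arrays 1 and 0 rose. The median log2 change of the 68 genes was -0.25 and -0.44, and that of all probe sets was -0.04 and 0.01. Limma called 0 of the 68 for red light in OsYHB, where 11 had an unadjusted p below 0.05, and 0 for OsYHB against wild type in red light, where 5 had one. Of all 57258 probe sets, 8365 and 4353 had such an unadjusted limma p in these comparisons, and 0.0105% and 0.0192% were called. The auxin counts there are near this background.

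The lists held 2 synthesis and 2 inactivation genes with a probe set, too few to describe these pathways. Limma called 1 synthesis gene in OsYHB darkness and 0 in wild-type red light, and 0 inactivation genes in either. Over all probe sets 9.73% were called in wild-type red light and 17.0% in OsYHB darkness. FIB, the rice TAA1 gene for tryptophan aminotransferase, was lower in OsYHB darkness by a log2 change of -0.42 (SE 0.11, limma adjusted p = 0.0309), a call that was lost in each of the 8 fits without 1 array (adjusted p up to 0.132). YUCCA1, a flavin monooxygenase gene of the next step, had 0.38 in wild-type red light and 0.40 in OsYHB darkness and was not called. DAO, whose product oxidises auxin in rice, had -0.45 and -0.75 (limma adjusted p = 0.31 and 0.0656), and the auxin methyltransferase gene IAMT1 had -0.62 and -0.67 (0.282 and 0.182). IAMT1 was at 11.6 in wild-type dark replicate 1 and at 4.4 to 6.2 in every other array, well below the array median. Its changes thus rest on 1 array and on levels not shown to be above background.

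Among 6 transport genes PIN3A, an auxin efflux carrier gene, was lower in both comparisons, with log2 changes of -0.92 in wild-type red light (SE 0.11, adjusted p = 0.00158 in limma) and -1.03 for OsYHB in darkness (SE 0.11, adjusted p = 0.000724). Its intensities of 310.2 and 315.8 in wild-type darkness compare with 149.4 to 174.1 in the other 6 arrays. Its other probe set was called lower in both comparisons as well. PIN5C, also listed as PIN4 and PIN5b, fell by 1.67 in wild-type red light, with an SE of 0.33 and a limma adjusted p of 0.0157 (0.115 without wild-type red replicate 1), and had -0.60 in OsYHB darkness (limma adjusted p = 0.251).

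Among auxin response genes the largest called falls were those of Aux/IAA genes, which encode repressors that auxin itself induces. Of 26, 9 fell and 1 rose in wild-type red light and 14 fell in OsYHB darkness, where 9.73% and 17.0% of all probe sets were called. Without OsYHB dark replicate 2 the count in darkness was 9, and the riser was not called without wild-type dark replicate 2 or either wild-type red array. IAA18 had intensities of 864.6 and 603.1 in wild-type darkness and of 143.6 to 203.1 in the other 6 arrays, and changed by -1.90 (SE 0.19) and -2.18 (SE 0.19). IAA9 changed by -1.77 (SE 0.31; limma adjusted p = 0.0808 without wild-type red replicate 1) and -2.25 (SE 0.31). IAA20 had 167.1 and 125.6 in wild-type darkness and 13.9 to 29.1 elsewhere. Of 17 ARF genes 5 fell in wild-type red light (9.73% of all probe sets called) and 10 in OsYHB darkness (17.0%). The first count was 0 without wild-type dark replicate 1 or either wild-type red array and 3 without any 1 of the OsYHB arrays, and the second was 4 without OsYHB dark replicate 2. ARF16 changed by -0.81 and -1.25, a gene listed as both ARF1 and ARF16 by -0.78 and -1.25, and ARF22 by -0.62 and -0.85. In wild-type red light each of these ARF calls was lost without wild-type dark replicate 1 or either wild-type red array (limma adjusted p up to 0.139).

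SAUR39, which in rice is known as a negative regulator of auxin synthesis and transport, ran the other way. Its intensities were 178.0 and 69.2 in wild-type darkness, 555.4 and 494.9 in wild-type red light, 397.8 and 451.7 in OsYHB darkness and 276.1 and 516.9 in OsYHB red light. Its log2 change was 2.24 (SE 0.42) in wild-type red light at a limma adjusted p of 0.0126, and 1.93 (SE 0.42) in OsYHB darkness at 0.0172, both rises. The first call was lost without either wild-type red array (adjusted p up to 0.0899), and the second without either OsYHB dark array (adjusted p up to 0.105).

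The genes whose pattern lay nearest to each member were found among 2457 other named genes, by the root mean square difference of log2 values over the 8 arrays after each gene was centred on its own mean. Nearest to ILL3 was OSH1, a KNOX homeobox gene of the shoot meristem, at a difference of 0.87 (Pearson r = 0.992 over 8 arrays). OSH1 had 282.2 and 162.3 in wild-type darkness and 3.6 to 7.8 in the other 6 arrays. The allene oxide synthase gene AOS4 (1.33, r = 0.961), the lipid transfer protein gene LTP-2 (1.41, r = 0.994), the homeobox gene HOS9 (1.42, r = 0.975) and the ABC transporter gene ABCG45 (1.46, r = 0.984) followed. GH3.2 was next in this order, at rank 6 with 1.53 (r = 0.961).

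Nearest to GH3.2 was HOS9, at 0.36 (r = 0.981). HOS9 had 345.1 and 107.3 in wild-type darkness, 13.4 and 11.3 in wild-type red light, 12.0 and 8.7 in OsYHB darkness and 9.7 and 13.0 in OsYHB red light, so that its wild-type dark replicates were apart in the same direction as those of GH3.2. The chitinase gene Cht1 (0.52, r = 0.956), LTP-2 (0.55, r = 0.951), OsCASPL1D1, of the Casparian strip membrane protein-like family (0.57, r = 0.961), and the expansin gene EXP1 (0.58, r = 0.960) came next. ILL3 ranked 336 for GH3.2, as its changes were larger. These correlations are a description over arrays that share the wild-type dark group, which sets most of their size.

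**Figure D3:**
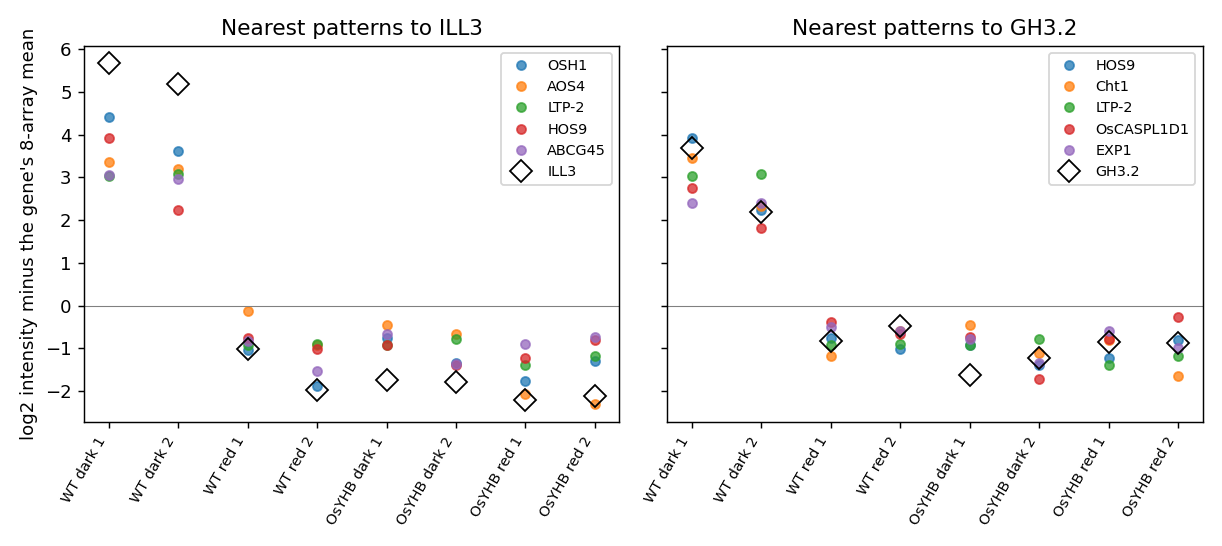
Log2 intensity minus each gene's own 8-array mean, by array, for ILL3 and GH3.2 (open diamonds) and the 5 named genes with the nearest pattern to each (coloured points). All genes shown lie above their mean in the wild-type dark arrays and below it in the other 6.

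The genes next to the pair on the chromosome did not show changes of this size. Of the 20 protein-coding genes nearest to ILL3 in the order of the RefSeq table, 15 have a probe set, and 3 of these were lower and 1 higher in wild-type red light. In OsYHB darkness 4 were lower and 1 higher. Over all probe sets 9.73% were called in the first comparison and 17.0% in the second, and no test of the flanking counts against that share was made. Of the 20 nearest to GH3.2, 16 have a probe set, and limma called 0 in wild-type red light and 2 in OsYHB darkness. In wild-type red light 5 of these 16 had an unadjusted limma p below 0.05, as did 13415 of all 57258 probe sets. The log2 changes of these flanking genes lay between -0.96 and 1.21 around ILL3 and between -0.66 and 1.23 around GH3.2.

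Green shoot markers differed between the groups, as did part of the seed markers. The summed intensity of 8 green shoot genes was 27774 and 28955 in wild-type darkness and 58616 to 63557 in the other 6 arrays. All of them were well above the array median except RBCS1, at 3.8 to 5.7. The sum of 9 seed and late embryo genes was 2633 and 1813 in wild-type darkness and 696 to 1140 elsewhere, with the storage protein genes GluB4, GluB5 and GluC at 3.7 to 8.0 in every array. PXG (1190.2 and 724.6) and Dhn1 (1060.5 and 822.4) made up most of the sum in wild-type darkness. LEA19, also named LEA3, was at 229.8 in wild-type red replicate 2 and at 10.5 in replicate 1. PXG and Dhn1 were called lower in wild-type red light and in OsYHB darkness, LEA19 and RAB16B in OsYHB darkness only. RAB16C, RAB16D, GluB4 and GluC were not called in either, and GluB5 was called higher in OsYHB darkness (log2 change 0.62, limma adjusted p = 0.0174). The sum of 3 root genes did not separate the groups, at 986 and 676 in wild-type darkness and 559 to 846 elsewhere, and its members went different ways. The nicotianamine aminotransferase gene NAAT1 was at 26.9 and 15.3 in wild-type darkness and at 49.0 to 338.1 elsewhere, with a log2 change of 3.75 in wild-type red light (limma adjusted p = 0.000198) and a smaller rise in OsYHB darkness (limma adjusted p = 0.0122). The silicon transporter gene Lsi1 had -0.65 and -0.38 (limma adjusted p = 0.0513 and 0.172). Lsi2 had -0.91 and -0.74 (limma adjusted p = 0.246 and 0.274), and was at 16.2 in wild-type dark replicate 1 and at 4.5 to 5.6 in the other 7 arrays. The part of these differences in the levels of ILL3 and GH3.2 was not tested. Replicate arrays correlated at 0.992 to 0.996 over all probe sets, with the lowest value in wild-type darkness.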

How the data were processed

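Biotinylated RNA was made with an Affymetrix 3' IVT kit, per the labels' protocols. For each array the deposited table gives a linear intensity of every probe set. RMA, GCOS and limma are named in the submitters' processing notes, with no version or role, and the background model is not given in the sources used here. Array medians of 20.4 to 20.9 and like quartiles have the shape of values already normalized, so none was applied.

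Of 57381 probe sets, 123 controls were left out. Of the 57258 tested, 22436 name 1 gene, 95 several and 34727 none. All 17905 genes were found in the RefSeq table (assembly ASM3414082v1), which gave the synonyms used as names and the gene order. Where a gene has several probe sets, that with the highest mean stands for it, and both members have only 1.

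Group means of log2 intensity were estimated over all 8 arrays by limma 3.58.1 under R 4.3.3 (4 residual and 4.27 prior degrees of freedom), two-sided, with Benjamini-Hochberg adjustment over all probe sets and a call at an adjusted p below 0.05. The line comparison had 2 residual degrees of freedom and a replicate term for each genotype. The fit was tested on simulated data. Tables and plots used pandas 2.3.3 and matplotlib 3.10.9.

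The members and gene lists were chosen with earlier results of these data known, so no test is given for the members in the comparisons behind that choice. The lists were drawn up by name pattern: GH3, ILL, synthesis, inactivation, transport, Aux/IAA, ARF and SAUR genes, and shoot, root and seed markers. The LAX names were left out, because the rice genes so named are not auxin carriers. The planned list of perception genes was not made, so auxin receptor genes were not looked at. All GH3 and ILL genes of the lists are named, and of each other list up to 3 called genes with the largest change. Family members without a matching name were not looked at. Further genes of synthesis and inactivation were named after their values were seen. The 5 genes nearest in pattern to each member follow a fixed measure. Promoter sequence was not used here, and the planned motif search was not made.

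The replicate number marks the line in OsYHB and is only a number in wild type. Deviations of replicate 1 from the group mean correlated across probe sets at 0.145 between the OsYHB groups and at 0.093 between the wild-type groups. Between a wild-type and an OsYHB group the correlations ran from -0.172 to 0.078, so 0.145 is within the size seen between groups that share no line. Replicates are biological per the labels. With 2 arrays per group, their number limits the precision. Alternatives were quantile normalization, median centring, a floor of 16, log2(value + 16), a filter on dim probe sets, an intensity trend, the arrays of both groups alone, a replicate block, an average over the probe sets of a gene, and each array left out.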

Additional observations from a re-analysis of the deposited data

Results flagged for a closer look

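No group has enough arrays for a check on single outlying arrays. By the interaction term, 11 of the 68 auxin genes other than ILL3 and GH3.2 had a light response that differed between wild type and OsYHB, 9 of them among the 26 Aux/IAA genes. In this term 4.22% of all probe sets were called. The separate fit on the 28626 probe sets above the median intensity called 3151. An auxin gene stands by its brightest probe set, so the auxin genes and all probe sets are unlike sets. The 5 given here are those among the named genes, which were taken for large changes in comparisons that share the wild-type dark arrays with the interaction, so that their interaction is not independent of that choice. Others had larger values than some of the 5, such as IAA12 (1.63), IAA31 (1.51) and IAA1, also named IAA13 (1.33). The difference, the response in OsYHB minus that in wild type, was 2.81 on the log2 scale for IAA20 (SE 0.25, limma adjusted p = 0.0012), where red light changed the gene by -2.37 in wild type and 0.44 in OsYHB. IAA9 had 2.06 (SE 0.44, limma adjusted p = 0.0397), from -1.77 and 0.29. IAA18 had 1.88 (SE 0.26, limma adjusted p = 0.0072), from -1.90 and -0.02. For ARF16 the difference was 1.07 (SE 0.22, limma adjusted p = 0.0331), from -0.81 and 0.26. For PIN3A it was 0.93 (SE 0.16, limma adjusted p = 0.0172), from -0.92 and 0.01. All 5 rest on the same wild-type dark arrays. No result with 1 array left out is given for these interaction calls, so their dependence on single arrays is not shown.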

How the results depend on the processing

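Of 202 values of ILL3 and GH3.2 under the alternatives, 188 kept their direction and call or stayed within the replicate spread. Many of these differences could not move. The trend, the dim filter, the arrays of both groups alone and the replicate block keep a difference of group means as it is. Leaving out an array of another group does so too. In such settings only the SE, and the call where one was tested, could change. With log2(value + 16) the changes in wild-type red light were -6.08 for ILL3 and -2.68 for GH3.2, those in OsYHB darkness -6.24 and -3.00 and the interactions 5.89 and 2.90, smaller because the added constant compresses low values. With a floor of 16 GH3.2 had -3.50 in OsYHB darkness and an interaction of 3.46, and the line difference of ILL3 was 0.03. Leaving out 1 array moved the interaction between 3.41 and 4.90 for GH3.2 and between 6.04 and 7.01 for ILL3, and OsYHB darkness minus wild-type red light for ILL3 between -0.74 and 0.23. The cause was not tested.

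Of 68 counts of called auxin genes that were above 0 as reported, 53 were within 1.5 times that count and 15 were not. The other 68 were 0 as reported and under the alternatives, which says nothing about stability. On the arrays of both groups alone 11 fell in wild-type red light, and 20 fell and 1 rose in OsYHB darkness. With a floor of 16, 1 rose in wild-type red light. Leaving out 1 array gave 7 to 19 lower and 0 to 3 higher in wild-type red light, and 16 to 33 lower and 0 to 3 higher in OsYHB darkness. Fits without 1 array have fewer residual degrees of freedom.

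With the replicate block the changes of ILL3 and GH3.2 were -6.93 and -3.60 in wild-type red light and -7.18 and -4.37 in OsYHB darkness. A block balanced over the groups returns the same differences, so this is no check on their size. FIB had a limma adjusted p of 0.052 with the block. The block changed no call of ILL3 or GH3.2. Both passed the filter on dim probe sets only through wild-type darkness. Without detection calls, the low levels are bounded by background alone.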

Other observations

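In wild-type darkness, 52 of the 68 other auxin genes (76.5%) had a higher intensity in replicate 1 than in replicate 2, while 46.5% of all 57258 probe sets did. The median log2 gap, replicate 1 minus replicate 2, was 0.21 for these auxin genes and -0.02 for all probe sets. The gap of GH3.2, 1.49, was larger in size than that of 99.6% of probe sets, and the gap of ILL3, 0.50, larger than that of 88.8%. These counts were made after the replicate spread of GH3.2 had been seen, and genes are not independent replicates.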
